A study of Homo sapiens with 18 samples.

Results

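Expression of 10 genes of the Hippo pathway was followed in 18 RNA-seq libraries of the rhabdoid tumour line G401. The genes are the transcriptional effectors YAP1, WWTR1, TEAD1 and TEAD4, the pathway regulators LATS2, AJUBA and AMOTL2, and the target genes ANKRD1, CTGF (CCN2) and CYR61 (CCN1). They were picked by name, with their response to the drug already known, from a table of 55765 gene symbols. All 10 were in the table and all 10 were among the 16154 genes with a mean normalized count of at least 10 over the 18 libraries, which is the set that was tested. ANKRD1 reached that mean through its drug-treated libraries alone.

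The Hippo pathway is a kinase cascade in which MST kinases activate LATS kinases, and LATS kinases phosphorylate the co-activators YAP (YAP1) and TAZ (WWTR1) so that they stay out of the nucleus. When the cascade is quiet, YAP and TAZ enter the nucleus, bind TEAD transcription factors and switch on genes such as CTGF, CYR61 and ANKRD1. Several genes of the pathway's inhibitory arm, LATS2 and AMOTL2 among them, are themselves YAP/TAZ-TEAD targets. The drug columns of the deposited table carry the letters TAZ, which there stand for tazemetostat and not for the protein TAZ.

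G401 is an established malignant rhabdoid tumour cell line without the chromatin remodelling subunit SMARCB1, and all 6 groups share that background. The control line, called WT, was edited with CRISPR/Cas9 at the AAVS1 safe harbour locus, and E1 and F2 are 1 clone each with both RB1 alleles deleted. For 11 days each line was kept with DMSO or with 10 µM tazemetostat, which blocks EZH2, the enzyme that writes the repressive histone mark H3K27me3. Each of the 6 groups has 3 biological replicates, so that E1 and F2 each stand for a single clone and a difference from WT cannot be told apart from a difference between clones.

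RB1 itself was lower in both clones, with means of 648 ± 138 (E1) and 839 ± 30.5 (F2) normalized counts in DMSO against 2694 ± 132 in WT (SD, n = 3 each). Under tazemetostat the means were 977 ± 59.0 and 937 ± 6.66 against 2474 ± 157. The libraries hold 25709489 to 39314860 reads assigned to genes, and values are counts divided by a size factor of 0.812 to 1.145 per library. SMARCB1 had 0 reads in every library. The rhabdoid markers VIM, KRT8 and KRT18 were high throughout, at 27410 to 69990, 13830 to 165800 and 8218 to 117000 normalized counts. Leukocyte markers were at or near 0 (at most 2 reads of PTPRC, 2 of CD3E and 4 of CD14 in any library), and the endothelial genes CDH5 and VWF reached at most 29 and 38 reads. PECAM1 was not analysed here. The E1 DMSO group was the most variable for the members: leaving ANKRD1 aside, the median coefficient of variation over the other 9 was 12.1% there and 3.45% to 6.03% in the other 5 groups. E1 DMSO replicate 2 was the lowest of its group for 7 of those 9 genes.

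The letters GGAATG, and CATTCC on the opposite strand, are the core of the motif that TEAD factors bind. RefSeq promoter sequence (GRCh38.p14) was at hand for 7 of the 10 members, with 10 start sites, and not for TEAD1, TEAD4 and CYR61. In the 250 bases upstream of the start, 5 of the 10 windows (50%), each of another gene, held the motif on either strand, against 11.9% of all 35116 promoters of the same length. Of these windows 4 are shown 5′ to 3′ on the strand of the gene, with the motif in capitals: those of ANKRD1 and CTGF as targets with repeated matches, and those of the regulator AMOTL2 and the effector YAP1 with a single match.
ANKRD1 (chr10:90921088-90921337, minus strand): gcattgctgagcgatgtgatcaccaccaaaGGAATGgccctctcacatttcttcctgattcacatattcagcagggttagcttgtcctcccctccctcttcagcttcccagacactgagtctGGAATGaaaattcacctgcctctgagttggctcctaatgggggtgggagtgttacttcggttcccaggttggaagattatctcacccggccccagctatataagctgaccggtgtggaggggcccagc
CTGF (chr6:131951373-131951622, minus strand): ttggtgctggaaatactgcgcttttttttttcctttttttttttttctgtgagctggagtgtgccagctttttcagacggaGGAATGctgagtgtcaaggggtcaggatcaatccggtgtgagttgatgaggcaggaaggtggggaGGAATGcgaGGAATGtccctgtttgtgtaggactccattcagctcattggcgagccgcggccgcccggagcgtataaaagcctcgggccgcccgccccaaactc
AMOTL2 (chr3:134374448-134374697, minus strand, the second of 2 starts): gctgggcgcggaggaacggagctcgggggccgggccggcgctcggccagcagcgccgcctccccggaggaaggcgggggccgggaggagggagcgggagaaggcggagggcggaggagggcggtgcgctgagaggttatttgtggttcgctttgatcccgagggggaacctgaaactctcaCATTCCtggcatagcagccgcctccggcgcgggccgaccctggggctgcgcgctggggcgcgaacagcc
YAP1 (chr11:102110197-102110446, plus strand): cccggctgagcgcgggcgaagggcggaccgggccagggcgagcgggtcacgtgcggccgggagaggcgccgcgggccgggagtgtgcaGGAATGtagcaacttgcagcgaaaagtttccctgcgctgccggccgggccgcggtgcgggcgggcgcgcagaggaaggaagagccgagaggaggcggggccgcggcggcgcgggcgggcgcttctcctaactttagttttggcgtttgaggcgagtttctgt

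ANKRD1 held the motif 2 times, beginning 220 and 128 bases upstream of the start. CTGF held it 3 times, beginning 169, 104 and 95 bases upstream. Of all promoters, 0.940% held 2 or more matches and 0.0826% held 3 or more. AMOTL2 held CATTCC once, 69 bases upstream of its second start, YAP1 held GGAATG once at 162 bases, and AJUBA held it once, 59 bases upstream of the second of its 2 starts. No match stood in the windows of LATS2 and WWTR1. A match describes the letters only. Binding was not measured here.

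ANKRD1 encodes an ankyrin repeat protein of cardiac and skeletal muscle that is also a much used readout of YAP/TAZ-TEAD activity. With DMSO it was almost silent: WT had normalized counts of 0, 1.88 and 5.68 (8 reads over the 3 libraries), E1 had 0.893, 0 and 0, and F2 had 0, 0 and 1.21. With tazemetostat it stood at 27167, 28584 and 23465 in WT, at 16102, 18423 and 16555 in E1, and at 28986, 28774 and 28511 in F2. No treated library came near any DMSO library in the 3 lines. The ratio of means in WT was 10474-fold (95% counting interval from the 8 DMSO reads 5465 to 24944). In the clones, whose DMSO libraries held at most 1 read each, ANKRD1 was at least 6011-fold (E1) and at least 8780-fold (F2) higher, taking 3 reads per library as the floor. By log2 difference, ANKRD1 ranked 1 of 16154 tested genes in each line. The rank is a description, since the gene was chosen with this response known. With DMSO near 0 reads the log2 difference also depends on the pseudocount. In E1 it was 13.75, and 11.65 with a pseudocount of 5. In bulk RNA, a larger share of expressing cells and more RNA per cell cannot be told apart.

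**Figure D1:**
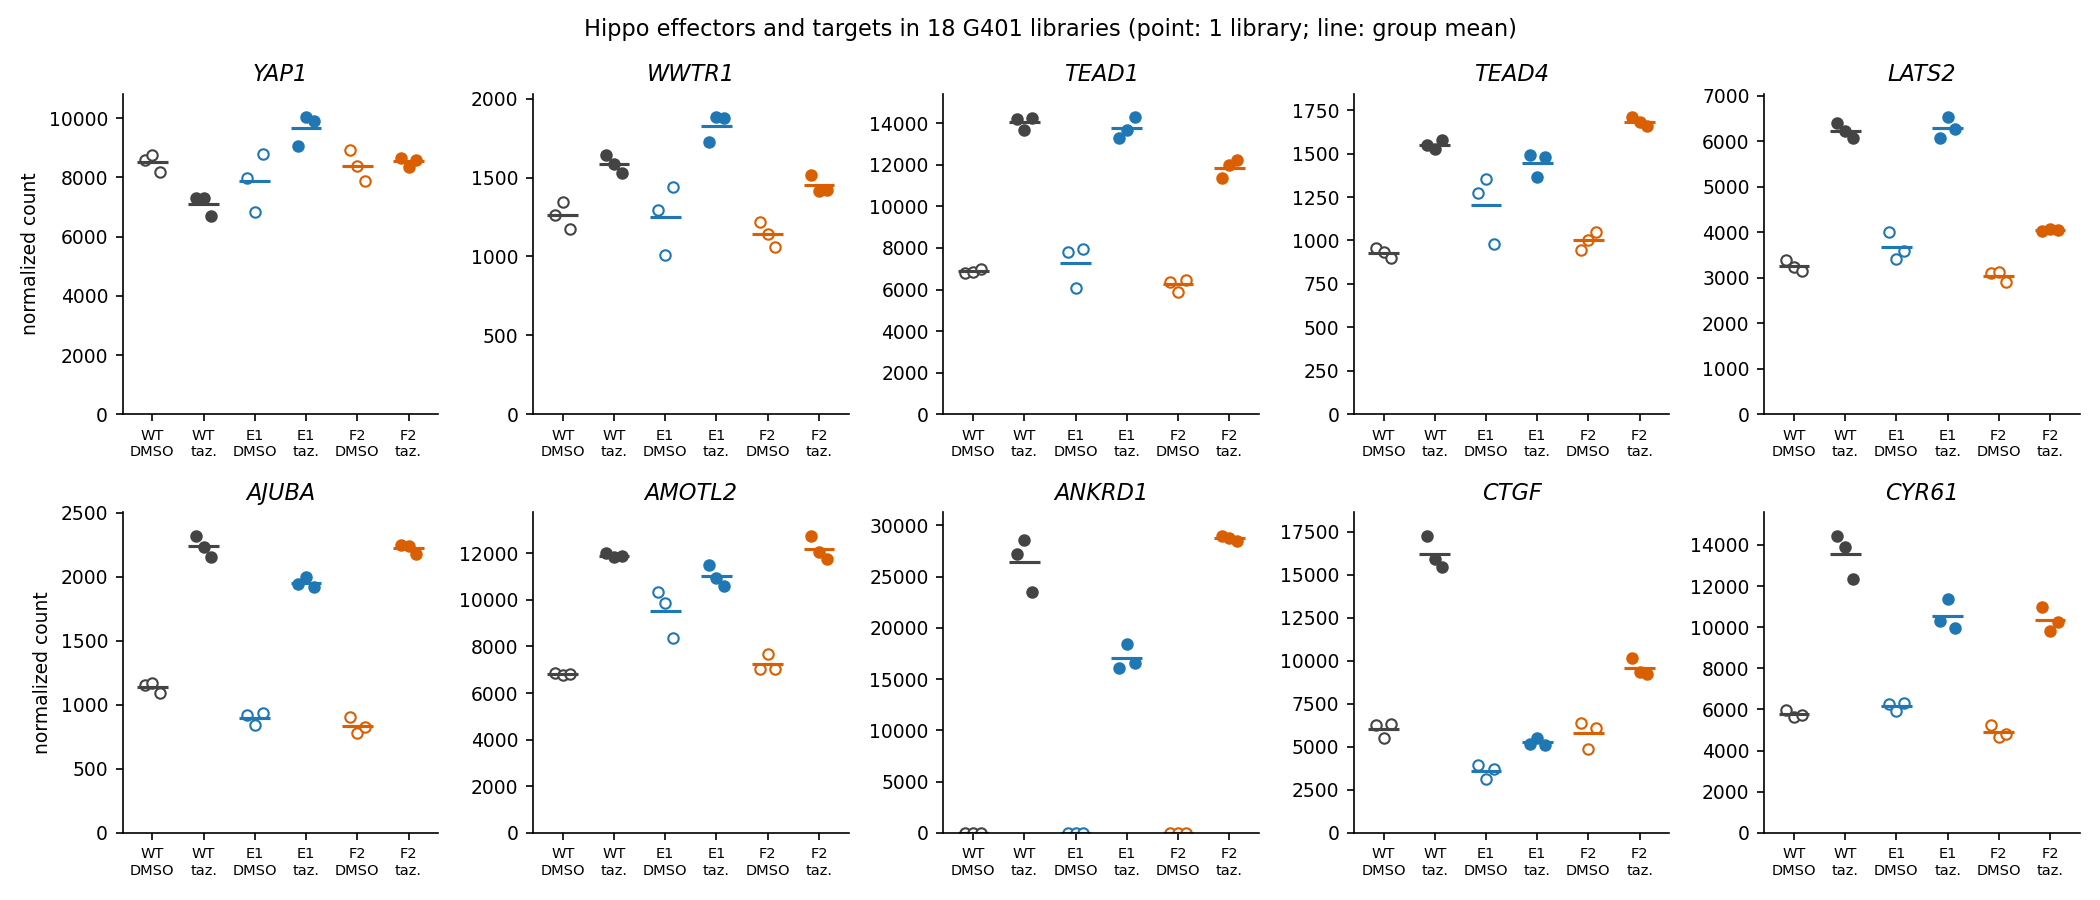
Normalized counts of the 10 genes (vertical axes from 0, 1 panel per gene) in the 6 groups, with open points for DMSO, filled points for tazemetostat and a line at the group mean of 3 libraries. ANKRD1 lies on the axis in all 9 DMSO libraries and between 16102 and 28986 in the 9 treated ones, while the other genes start from clear expression.

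CTGF, a secreted matricellular protein and a classical YAP/TAZ target, was well expressed before treatment. In WT its normalized counts were 6251, 5507 and 6320 with DMSO and 17267, 15911 and 15448 with tazemetostat. E1 had 3952, 3108 and 3721 with DMSO and 5158, 5488 and 5119 with the drug. F2 had 6373, 4876 and 6094 with DMSO and 10175, 9360 and 9240 with the drug. The treated libraries were above the DMSO libraries of their own line in all 3 lines. Yet every treated E1 library was below every DMSO library of WT, if only just (5488 against 5507 at the nearest). The drug differences on the log2 scale were 1.43 ± 0.10 (WT), 0.55 ± 0.10 (E1) and 0.74 ± 0.10 (F2), given ± SE of the fit with n = 3 per group.

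CYR61, a relative of CTGF in the same protein family, had 5982, 5647 and 5750 normalized counts in WT with DMSO and 14446, 13921 and 12336 with tazemetostat. In E1 the counts were 6278, 5898 and 6291 with DMSO and 10281, 11348 and 9946 with the drug. In F2 they were 5240, 4666 and 4827, and 10958, 9796 and 10259. Treated and DMSO libraries did not overlap in any line, and the treated WT libraries were above all treated libraries of both clones. On the log2 scale the differences were 1.23 ± 0.07 (WT), 0.77 ± 0.07 (E1) and 1.07 ± 0.07 (F2).

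Among the effectors, YAP1 did not move in 1 direction. WT had 8576, 8772 and 8194 normalized counts with DMSO and 7304, 7300 and 6697 with tazemetostat, so that the treated libraries were all lower. E1 had 7980, 6822 and 8804 with DMSO and 9054, 10030 and 9916 with the drug, all higher. F2 had 8924, 8385 and 7879, and 8643, 8366 and 8601, which overlap. The log2 differences were -0.26 ± 0.08, 0.30 ± 0.08 and 0.03 ± 0.08 in WT, E1 and F2.

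WWTR1, which encodes TAZ, was expressed at a lower level and was higher with the drug in every line. Its WT counts were 1266, 1348 and 1172 with DMSO and 1644, 1584 and 1528 with tazemetostat. In E1 they were 1296, 1007 and 1442, and 1725, 1882 and 1877. In F2 they were 1219, 1143 and 1057, and 1517, 1416 and 1421. None of the 3 pairs of groups overlapped, and the log2 differences were 0.33, 0.56 and 0.35 (± 0.10 each). Per kilobase of exon, YAP1 was 9.03 ± 0.33 times as abundant as WWTR1 in WT with DMSO and 5.98 ± 0.16 times with tazemetostat (SD, n = 3). The ratio was 8.48 ± 0.50 and 7.07 ± 0.05 in E1 and 9.85 ± 0.10 and 7.87 ± 0.24 in F2, with the treated libraries below the DMSO libraries in each line.

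TEAD1, one of the TEAD factors through which YAP and TAZ reach DNA, was close to 2-fold higher with the drug in each line. WT had 6803, 6836 and 6966 normalized counts with DMSO and 14214, 13688 and 14254 with tazemetostat. E1 had 7814, 6056 and 7957, and 13298, 13688 and 14283. F2 had 6381, 5887 and 6457, and 11341, 11970 and 12224. The lowest treated library of any line, at 11341, was above the highest DMSO library, at 7957. The log2 differences were 1.03, 0.93 and 0.92 (± 0.08 each).

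TEAD4 had 954, 936 and 897 normalized counts in WT with DMSO and 1547, 1527 and 1575 with tazemetostat. In F2 it had 945, 1005 and 1051, and 1709, 1683 and 1659. E1 differed: its DMSO libraries were spread over 1273, 1353 and 981, and its treated libraries stood at 1491, 1365 and 1477, so that the lowest treated library was just above the highest DMSO library. The log2 differences were 0.74 (WT), 0.28 (E1) and 0.75 (F2), each ± 0.09.

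LATS2, a kinase that phosphorylates and restrains YAP and TAZ, had 3402, 3233 and 3148 normalized counts in WT with DMSO and 6395, 6236 and 6074 with tazemetostat. E1 had 4018, 3414 and 3597, and 6078, 6531 and 6284. F2 had 3112, 3120 and 2907, and 4025, 4075 and 4062. The treated F2 libraries were above their own DMSO libraries but below every treated library of WT and E1. This gave log2 differences of 0.94, 0.78 and 0.41 (± 0.06 each).

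AJUBA, a LIM-domain scaffold that binds LATS kinases and limits their activity, had 1156, 1169 and 1094 normalized counts in WT with DMSO and 2322, 2237 and 2158 with tazemetostat. E1 had 918, 839 and 934, and 1944, 1998 and 1922. F2 had 904, 780 and 825, and 2252, 2241 and 2177. The DMSO libraries of both clones were below those of WT, and under the drug those of F2 overlapped WT. The log2 differences were 0.97, 1.12 and 1.41 (± 0.06 each).

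AMOTL2, a junction-associated scaffold that holds YAP in the cytoplasm, had 6846, 6791 and 6797 normalized counts in WT with DMSO and 11990, 11822 and 11872 with tazemetostat. F2 had 7033, 7683 and 7047, and 12751, 12074 and 11749. E1 was already high with DMSO, at 10350, 9884 and 8360, and had 11484, 10934 and 10593 with the drug. With DMSO the E1 libraries were above those of WT and F2, and under the drug they were below them. The log2 differences were 0.80, 0.21 and 0.75 (± 0.07 each).

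Counted together, 9 of the 10 genes were higher with tazemetostat without overlap in WT and 1 (YAP1) was lower without overlap. All 10 were higher without overlap in E1 and 9 in F2. Over all tested genes, 39.3%, 27% and 33.6% were higher without overlap in WT, E1 and F2, and 32.9%, 19.7% and 28.8% were lower. With the added condition of a 2-fold difference, 4 members remained in WT (ANKRD1, CTGF, CYR61 and TEAD1), 2 in E1 (ANKRD1 and AJUBA) and 3 in F2 (ANKRD1, AJUBA and CYR61), all higher. That rule took in 21.1%, 15% and 16.9% of all tested genes, both directions together. TEAD1 in WT was under 2-fold (0.88) when all libraries were scaled to the same total. The median log2 difference over the 10 was 0.95, 0.67 and 0.75, against 0.03, 0.02 and 0.02 over all tested genes. Since the genes were chosen with these differences in view, no test is given for them. Other genes of the marker lists moved with the drug too: the DMSO and tazemetostat means were 23740 and 160800 normalized counts for KRT8 in WT, 0.921 and 11.7 for CDH5, and 1.21 and 27.3 for VWF. In E1 these pairs were 41640 and 87230, 0 and 7.31, and 5.24 and 24.3, and in F2 14290 and 88320, 0 and 26.5, and 2.13 and 33.7. PTPRC, CD3E and CD14 stayed at or under 4 reads in all libraries. The part of cell state or composition in the differences was not tested.

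**Figure D2:**
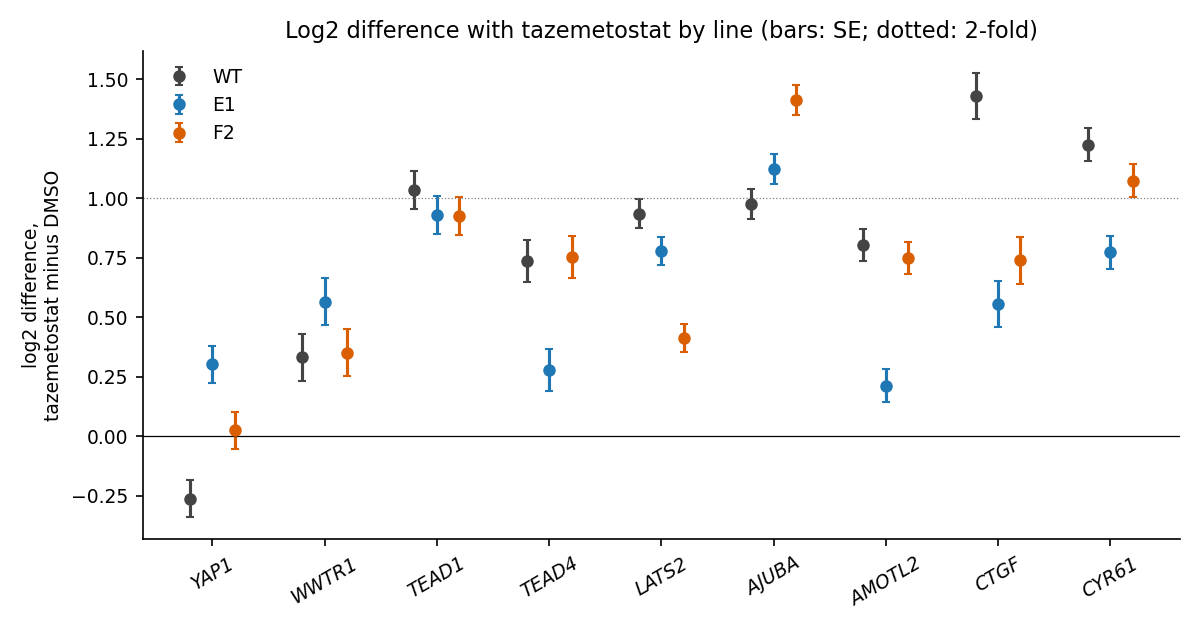
Log2 difference between tazemetostat and DMSO (vertical axis) for the 9 genes other than ANKRD1 in WT, E1 and F2, with bars for the SE of the fit (n = 3 per group) and a dotted line at 2-fold. CTGF spans 0.55 to 1.43 over the lines, LATS2 0.41 to 0.94, AJUBA 0.97 to 1.41, and YAP1 lies on both sides of 0.

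Levels were set against each other per kilobase of exon, using the union of exons in GENCODE 29. With DMSO, CTGF and CYR61 led in WT at 2576 and 2360 normalized counts per kb, and in F2 at 2471 and 2000. In E1 with DMSO the order was CYR61 at 2507, AMOTL2 at 1593 and CTGF at 1536. ANKRD1 was last in every line at 0.150 to 1.27. With tazemetostat ANKRD1 was first in every line, at 13340 (WT), 8604 (E1) and 14530 (F2) normalized counts per kb. CTGF was second in WT at 6930, with CYR61 at 5526, while in E1 CYR61 stood at 4287 and CTGF at 2247. CTGF and CYR61 were nearly level in treated F2, at 4101 and 4211 per kb. WWTR1 and AJUBA were the least abundant of the members other than ANKRD1 in all 6 groups, at 136 to 217 and 139.9 to 374 per kb. Exons of YAP1, WWTR1 and CTGF are overlapped by antisense genes over 9.98%, 9.45% and 8.34% of their length, and the strand setting of the counting is not given in the sources used here. WWTR1-AS1 itself had 5.83 to 24.5 normalized counts.

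The clones were then compared with WT in DMSO with limma over all tested genes, where a gene is past the threshold at an adjusted p under 0.05 and a log2 difference of at least 1. None of the 10 members passed in E1 against WT, where 5.04% of all tested genes did, and 6 had an unadjusted p under 0.05. None passed in F2 against WT, where 2.98% did, and 3 had an unadjusted p under 0.05. The counts by edgeR and DESeq2 were also 0 in both. By adjusted p alone, 5 members differed in E1 and 2 in F2, against 23.2% and 20.2% of all tested genes, so that the share in F2 is at the background. In E1, CTGF was lower than in WT by a log2 difference of -0.75 ± 0.10 (adjusted p = 1.25e-05), with all 3 libraries below the WT range. AMOTL2 was higher by 0.48 ± 0.07 (adjusted p = 3.90e-05), and its 3 libraries were above the WT range. AJUBA was lower in both clones, by -0.35 ± 0.06 in E1 (adjusted p = 4.70e-04) and -0.45 ± 0.06 in F2 (adjusted p = 5.42e-05), again without overlap. Over the alternative settings the adjusted p of these calls stayed under 0.05 but was much weaker in some. The highest was 1.60e-02 for CTGF, 3.01e-02 for AMOTL2, and 2.82e-02 (E1) and 1.25e-02 (F2) for AJUBA. TEAD4 (0.36, adjusted p = 5.82e-03) and LATS2 (0.17, adjusted p = 4.70e-02) in E1 and CYR61 in F2 (-0.24, adjusted p = 2.19e-02) were past that line by less. With the spread estimated from the 2 groups alone, TEAD4 had an adjusted p of 0.161 and LATS2 of 0.220. LATS2 also lost the call without WT DMSO replicate 2 or 3 (0.122 and 0.161) or E1 DMSO replicate 1 (0.227), and CYR61 without WT DMSO replicate 1 (0.0895) or F2 DMSO replicate 2 or 3 (0.0992 and 0.0662). Without WT DMSO replicate 1, the library with 0 ANKRD1 reads, ANKRD1 passed the full threshold in both clones, with -1.83 in E1 and -1.75 in F2. Without WT DMSO replicate 3, with 6 reads, it had -0.46 and -0.38 and did not pass. ANKRD1 was tested only because of its treated libraries, so these values rest on a few reads and show no difference between lines. Without E1 DMSO replicate 2 or 3, calls for TEAD1 and YAP1 were added by adjusted p alone.

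With both lines under tazemetostat, CTGF was the 1 member past the full threshold in E1 against WT, with a log2 difference of -1.62 ± 0.10 (adjusted p = 2.40e-10). Of all tested genes 11.3% passed there. The E1 libraries at 5119 to 5488 normalized counts were far below the WT libraries at 15448 to 17267. No member passed in F2 against WT (12.3% of all tested genes did), where 5 had an unadjusted p under 0.05 and edgeR and DESeq2 gave 0 as well. Without the fold limit, 4 members differed in E1 and 5 in F2, against 51.8% and 53.1% of all tested genes, which are no higher shares than the background. CYR61 was lower in both clones, by -0.37 ± 0.07 in E1 (adjusted p = 2.84e-04) and -0.39 ± 0.07 in F2 (adjusted p = 1.38e-04). CTGF in F2 was lower by -0.76 ± 0.10 (adjusted p = 3.49e-06), and LATS2 in F2 by -0.62 ± 0.06 (adjusted p = 9.78e-08). YAP1 was higher in both clones, by 0.44 ± 0.08 (adjusted p = 1.11e-04) and 0.27 ± 0.08 (adjusted p = 7.67e-03). AJUBA in E1 (-0.20, adjusted p = 1.48e-02) and TEAD1 in F2 (-0.25, adjusted p = 1.43e-02) complete the list, and lost the call without WT tazemetostat replicate 1 (adjusted p = 0.0653) and without F2 tazemetostat replicate 1 (adjusted p = 0.0591).

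Some of the values under tazemetostat depend on how libraries are scaled. Scaling all libraries to the same total in place of the deposited size factors moved the median of all tested genes by 0.15 in F2 against WT under the drug and by -0.15 in the drug comparison of WT. The share of calls that were higher in F2 went from 59.5% to 71.5%, and in the WT drug comparison from 68.2% to 57.7%. TEAD1 in F2 then had -0.10 (adjusted p = 3.03e-01), and TEAD4 (0.27), AMOTL2 (0.18) and AJUBA (0.14) had adjusted p of 2.07e-02, 2.87e-02 and 4.65e-02. CTGF (-0.61), LATS2 (-0.47), CYR61 (-0.24) and YAP1 (0.41) kept an adjusted p under 0.05. In E1 against WT under the drug AJUBA lost its call with the same total (-0.13, adjusted p = 6.00e-02), and WWTR1 gained one (0.27, adjusted p = 1.92e-02). With the same total the drug differences of the members in WT were also lower. TEAD1 had 0.88, under 2-fold, CTGF 1.28 and CYR61 1.07. AJUBA had 0.82, LATS2 0.78, AMOTL2 0.65, TEAD4 0.59, WWTR1 0.18 and YAP1 -0.41.

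**Figure D3:**
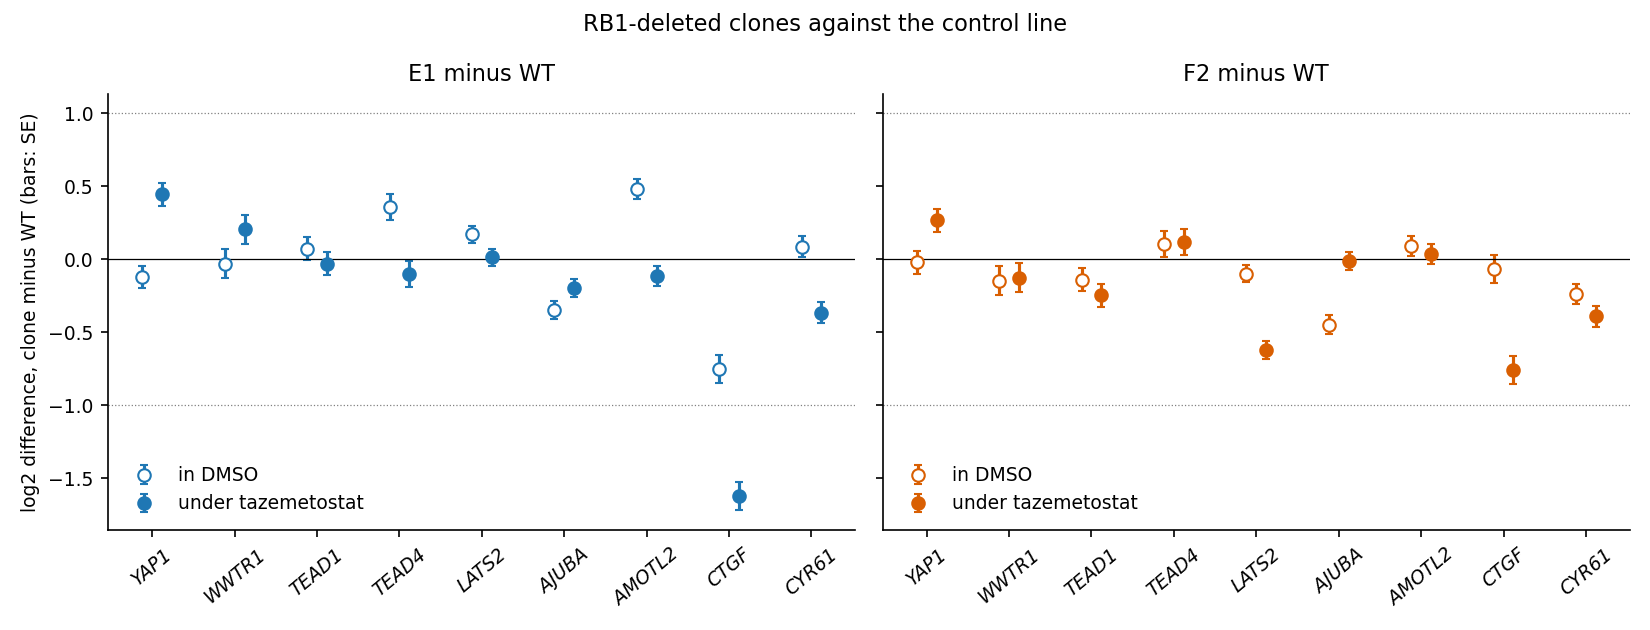
Log2 difference between each RB1-deleted clone and WT (vertical axis) for 9 genes, with open points in DMSO, filled points under tazemetostat, bars for the SE of the fit and dotted lines at 2-fold. CTGF in E1 goes from -0.75 in DMSO to -1.62 under the drug, and LATS2 in F2 from -0.10 to -0.62.

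ANKRD1 was lower in treated E1, where the highest library at 18423 normalized counts was below the lowest of WT at 23465 and of F2 at 28511. The log2 difference was -0.63 ± 0.45 to WT (adjusted p = 2.57e-01 by limma), and -0.76 ± 0.45 to F2 (adjusted p = 2.09e-01). The SE of that fit pools the spread of all 6 groups, and on the log2(value + 1) scale the DMSO groups of ANKRD1 lie between 0 and 6 reads. With the spread taken from the 2 treated groups alone, the adjusted p was 5.09e-05 against WT and 3.34e-07 against F2, and edgeR on the recovered reads gave 2.39e-05 and 5.30e-06. Treated F2 and WT differed by 0.13 ± 0.45 (adjusted p = 8.31e-01, and 2.54e-01 by edgeR).

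The 2 clones also differed from each other. In DMSO no member was past the full threshold in E1 against F2 (7.56% of all tested genes were, 6 members had an unadjusted p under 0.05, and edgeR and DESeq2 gave 0). By adjusted p alone 6 members differed, against 37.1% of all tested genes: CTGF was lower in E1 (-0.68, adjusted p = 2.19e-05), and AMOTL2 (0.39, adjusted p = 2.00e-04), CYR61 (0.33, adjusted p = 1.23e-03), LATS2 (0.27, adjusted p = 1.65e-03), TEAD4 (0.25, adjusted p = 3.12e-02) and TEAD1 (0.21, adjusted p = 4.51e-02) were higher. The TEAD1 call was lost without any of the E1 or F2 DMSO libraries except E1 replicate 2 (adjusted p = 0.0551 to 0.181), and the TEAD4 call without replicate 1 or 2 of either group (0.0640 to 0.152). With the same total for all libraries TEAD1 had an adjusted p of 1.14e-01 and TEAD4 of 8.55e-02, and both also missed the line with no filter or with the spread of the 2 groups alone. LATS2 missed it with the latter (6.20e-02). Over the alternative settings the highest adjusted p was 2.84e-02 for CTGF, 4.63e-02 for AMOTL2 and 2.15e-02 for CYR61. Without E1 DMSO replicate 2, WWTR1 was added. Under tazemetostat the count at the full threshold was again 0 by limma, edgeR and DESeq2, with 8 members at an unadjusted p under 0.05 and 6.82% of all tested genes past it. Without the fold limit 5 members differed, against 34.5% of all tested genes. LATS2 was higher in E1 (0.63, adjusted p = 2.14e-07) and CTGF lower (-0.87, adjusted p = 1.84e-06), with no overlap of libraries in either. WWTR1 (0.33, adjusted p = 1.46e-02), TEAD1 (0.22, adjusted p = 4.38e-02) and AJUBA (-0.19, adjusted p = 2.92e-02) were nearer the line. Leaving out 1 treated library took WWTR1 over it (E1 replicate 2 or 3, or F2 replicate 2: 0.0512 to 0.0552), TEAD1 (each but E1 replicate 1: 0.0623 to 0.144) and AJUBA (E1 replicate 1 or 3, or F2 replicate 1 or 2: 0.0559 to 0.0898). YAP1 was added without E1 tazemetostat replicate 1. With the same total TEAD1 had an adjusted p of 2.11e-01, and TEAD4 (-0.31, adjusted p = 1.59e-02) and AMOTL2 (-0.23, adjusted p = 1.28e-02) were added. With no filter TEAD1 and AJUBA had 7.92e-02 and 5.63e-02.

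The difference in drug response between lines was tested as an interaction. No member reached a 2-fold response difference past the threshold in E1 minus WT, F2 minus WT or E1 minus F2, where 10%, 7.48% and 5.81% of all tested genes did. At an unadjusted p under 0.05 there were 5, 4 and 6 members, and edgeR and DESeq2 also gave 0. By adjusted p alone, 5, 3 and 5 members had a response difference, against 35.4%, 26.9% and 14.8% of all tested genes. The share in F2 minus WT is thus near the background. CTGF responded less in both clones than in WT, by -0.87 ± 0.14 in E1 (adjusted p = 7.93e-05) and by -0.69 ± 0.14 in F2 (adjusted p = 1.04e-03). CYR61 responded less in E1 (-0.45 ± 0.10, adjusted p = 1.68e-03), and in F2 its difference from WT was -0.15 ± 0.10 (adjusted p = 2.87e-01). Whether the 2 target genes differ from each other was not tested. AMOTL2 responded less in E1 than in WT (-0.59 ± 0.10, adjusted p = 1.17e-04) and than in F2 (-0.54 ± 0.10, adjusted p = 7.26e-04), and TEAD4 likewise (-0.46 ± 0.12, adjusted p = 7.66e-03, and -0.47 ± 0.12, adjusted p = 1.37e-02). For both genes E1 was the line with the highest DMSO mean, 9531 normalized counts of AMOTL2 and 1202 of TEAD4.

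LATS2 responded less in F2 than in WT (-0.52 ± 0.08, adjusted p = 1.45e-04), and E1 exceeded F2 by 0.37 ± 0.08 (adjusted p = 5.56e-03). AJUBA responded more in F2 than in WT (0.44 ± 0.09, adjusted p = 1.21e-03), with E1 below F2 by -0.29 ± 0.09 (adjusted p = 3.61e-02). That last call was lost without any of 8 of the 12 E1 and F2 libraries (adjusted p = 0.0551 to 0.104). CYR61 in E1 minus F2 (-0.30 ± 0.10, adjusted p = 4.88e-02) was likewise lost without any of 8 of them (0.0541 to 0.135). YAP1 responded in opposite directions in E1 and WT, which differed by 0.57 ± 0.11 (adjusted p = 6.02e-04). Without E1 DMSO replicate 2, the response differences of E1 minus WT were -0.97 for CTGF, -0.56 for AMOTL2, 0.47 for YAP1, -0.48 for CYR61 and -0.37 for TEAD4, each still at an adjusted p under 0.05, and TEAD1 (-0.23, adjusted p = 2.24e-02) and LATS2 (-0.21, adjusted p = 4.88e-02) were added. Without E1 DMSO replicate 3, WWTR1 was added (0.35, adjusted p = 3.19e-02) and YAP1 in E1 minus F2, and without F2 DMSO replicate 1 YAP1 in F2 minus WT. That YAP1 difference, 0.29 with an adjusted p of 6.12e-02, also passed with the same total (0.41, adjusted p = 3.20e-03), by edgeR and by DESeq2, as did AJUBA in E1 minus WT with the same total alone (0.24, adjusted p = 2.64e-02). Without WT DMSO replicate 1 ANKRD1 passed in F2 minus WT (1.88), and without WT DMSO replicate 3 it had 0.51 and did not pass. Both values rest on a few DMSO reads. These comparisons share libraries with each other and with the drug comparisons, so their counts are not independent.

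Of the other regulators and partners of the pathway, 28 were listed and 25 tested (WWC3, VGLL1 and VGLL2 had means under 10). AMOT and VGLL3 had a mean under 10 over the DMSO libraries and were tested because of their treated libraries, so the drug counts of this list are a description, and no p-value is given for the drug differences of its genes. In WT 5 rose with tazemetostat and none fell, where 14.5% of all tested genes rose and 6.77% fell. In E1 and F2 3 rose in each and none fell, where 11.3% and 13.3% of all tested genes rose and 3.78% and 3.71% fell. The shares that rose in E1 and F2 are thus near the background. By adjusted p alone 12 were higher in each line, against 34.8%, 27.1% and 29% of all tested genes in WT, E1 and F2, and 3, 2 and 4 were lower, against 29.4%, 19.7% and 23.2%. The median log2 difference of the 25 was 0.16, 0.17 and 0.18, also with the genes at the floor in DMSO taken at their bound. AMOT, the angiomotin scaffold that binds YAP as AMOTL2 does, rose from 0 normalized counts to 579 ± 34.1 in WT (at least 209.6-fold). In E1 it went from 0.322 to 229 ± 16.7 (at least 80.8-fold) and in F2 from 1.04 to 778 ± 54.3 (at least 237-fold). VGLL3, a TEAD-binding cofactor, rose from 0 in every DMSO library to 109 ± 17.3, 177 ± 15.7 and 71.7 ± 19.1 (at least 39.4-fold, 62.6-fold and 21.9-fold). FAT4, an atypical cadherin upstream of the pathway, rose from 20.1 ± 5.31 to 878 ± 113 in WT and from 21.9 ± 6.37 to 1308 ± 209 in F2. In E1 FAT4 already stood at 159.7 ± 13.4 with DMSO and rose to 1187 ± 109. WWC1 (KIBRA) and NF2 (merlin), both upstream activators of LATS, rose past the threshold in WT alone, by 1.51 and 1.14 on the log2 scale. In F2 they were 1.89-fold and 1.63-fold higher with the drug, and in E1 1.28-fold and 1.025-fold. Their DMSO means were 6401 and 3431 normalized counts in E1 against 3672 and 1758 in WT. The core kinase gene LATS1 and the MST genes STK3 and STK4 were among those that passed in no line.

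Some of these regulators also differed between the lines. FAT4 in DMSO was higher in E1 than in WT by 2.96 (adjusted p = 3.60e-09). WWC1 (1.41, adjusted p = 4.36e-12) and NF2 (1.13, adjusted p = 1.43e-09) were higher in E1 than in F2. Under tazemetostat AMOT was lower in E1 than in WT (-1.34, adjusted p = 8.11e-03, and 5.02e-02 with a pseudocount of 0.5) and than in F2 (-1.76, adjusted p = 1.98e-03), and WWC1 was lower in F2 than in WT (-1.20, adjusted p = 4.36e-11). VGLL3 was higher in E1 than in F2 there (1.32, adjusted p = 1.57e-04).

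A second list holds the other genes of a published YAP/TAZ target signature, of which 17 were listed and 16 tested (FOXF2 had a mean under 10). NT5E, DOCK5 and RBMS3 had a mean under 10 over the DMSO libraries, so these drug counts too are a description, without p-values. With tazemetostat 12 of the 16 rose in the control line, 8 in E1 and 9 in F2, where 14.5%, 11.3% and 13.3% of all tested genes rose. None fell, where 6.77%, 3.78% and 3.71% did. The median log2 difference was 1.63, 0.79 and 1.20, also with genes at the floor in DMSO taken at their bound. Without the fold limit 1 gene fell in WT and in E1, AXL, a receptor tyrosine kinase, with -0.34 and -0.24, and in F2 it had 0.01. NT5E, the surface enzyme that makes adenosine, rose from 16.7 ± 4.53 to 5100 ± 396 normalized counts in WT (305-fold). In the clones NT5E was at the floor with DMSO and reached 3055 ± 436 in E1 (at least 1079-fold) and 1769 ± 142 in F2 (at least 540.1-fold). IGFBP3, a secreted binding protein of insulin-like growth factors, rose from 63.8 ± 48.4 to 11450 ± 383 in WT, to 3183 ± 172 in E1 (at least 1124-fold) and to 5019 ± 230 in F2 (at least 1532-fold). DOCK5 and CCDC80 rose in all lines, DOCK5 by 7.21, 8.00 and 8.45 and CCDC80 by 7.21, 6.28 and 6.36 on the log2 scale. FJX1, GADD45A and NUAK2 rose more modestly in every line, FJX1 from 520.2 ± 38.3 to 1857 ± 99.8 in WT.

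**Figure D4:**
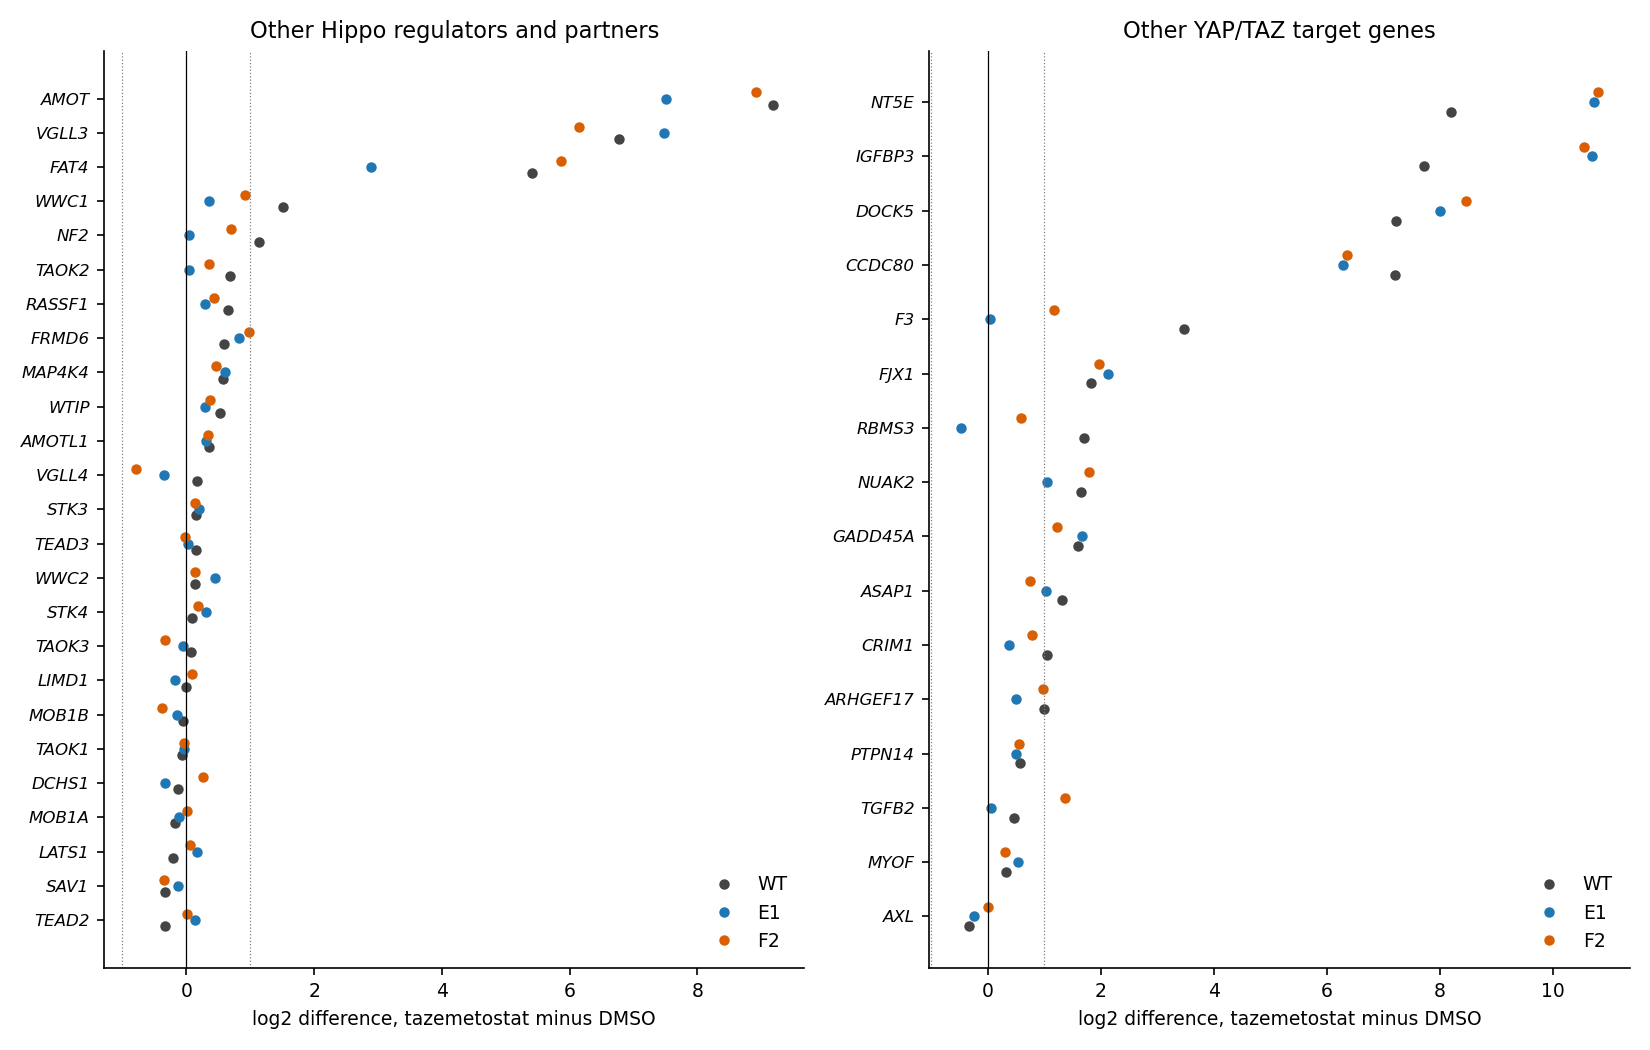
Log2 difference between tazemetostat and DMSO (horizontal axis) of the 25 tested regulators and partners (left) and the 16 tested target genes (right) in WT, E1 and F2, with dotted lines at 2-fold. AMOT, VGLL3 and FAT4 stand apart among the regulators, most of which lie near 0, and NT5E, IGFBP3, DOCK5 and CCDC80 stand apart among the targets.

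F3, the gene of tissue factor, had a response difference of -3.43 in E1 minus WT (adjusted p = 5.65e-08). It rose from 12.8 ± 1.83 to 152 ± 10.3 normalized counts in WT (log2 3.48) and from 25.8 ± 3.47 to 59.4 ± 8.63 in F2 (1.17). In E1 it stood at 53.2 ± 5.00 with DMSO and 56.7 ± 18.9 with the drug (0.05). With DMSO, IGFBP3 and NT5E were lower in both clones than in WT, with IGFBP3 means of 0.944 (E1) and 2.47 (F2) against 63.8 and NT5E means of 0.971 and 0 against 16.7, and F3 was higher in E1 (1.98, adjusted p = 7.21e-07). Under tazemetostat F3 and IGFBP3 were lower in both clones than in WT, F3 by -1.45 and -1.35 and IGFBP3 by -1.85 and -1.19, as was CCDC80 in E1 (-1.31) and NT5E in F2 (-1.53). RBMS3 was scarce in all groups, with 1.91 ± 1.94 normalized counts in treated F2 and 27.6 ± 7.62 in treated WT. Its mean over the 18 libraries, 11.87, was just above the filter of 10, and treated WT was its highest group. No p-value is therefore given for that difference. As a description of the promoters, 5 of 13 windows of target genes (38.5%) and 5 of 35 windows of regulators (14.3%) held the TEAD core motif, against the 11.9% of all promoters.

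Genes with a profile like that of ANKRD1 were ranked by the root mean square difference of log2(value + 1) over the 18 libraries, after each gene's own mean was subtracted. The nearest were POSTN (1.15), which encodes the matrix protein periostin, CNTNAP2 (1.17), a neuronal adhesion molecule, NRP2 (1.24), a semaphorin and VEGF co-receptor, TENM3 (1.26), a teneurin, and ABLIM1 (1.27), an actin-binding protein. POSTN went from a mean of 0.291 to 6018 ± 579 normalized counts in WT, from 0.325 to 4561 ± 476 in E1 and from 0.342 to 10900 ± 248.7 in F2. NRP2 was highest in treated F2, at 7541 ± 237, and lowest in treated WT, at 2433 ± 70.0. CNTNAP2 was highest in treated E1, at 20660 ± 1560 normalized counts, the line in which treated ANKRD1 was lowest. All 5 had at most 10 reads in any DMSO library. The other 9 members ranked 1781 (AJUBA) to 7974 (YAP1) of the tested genes in that order, at 6.35 to 6.93. The measure is not scaled to the size of the change. A gene with a much smaller change is therefore far from ANKRD1 whatever the shape of its profile.

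**Figure D5:**
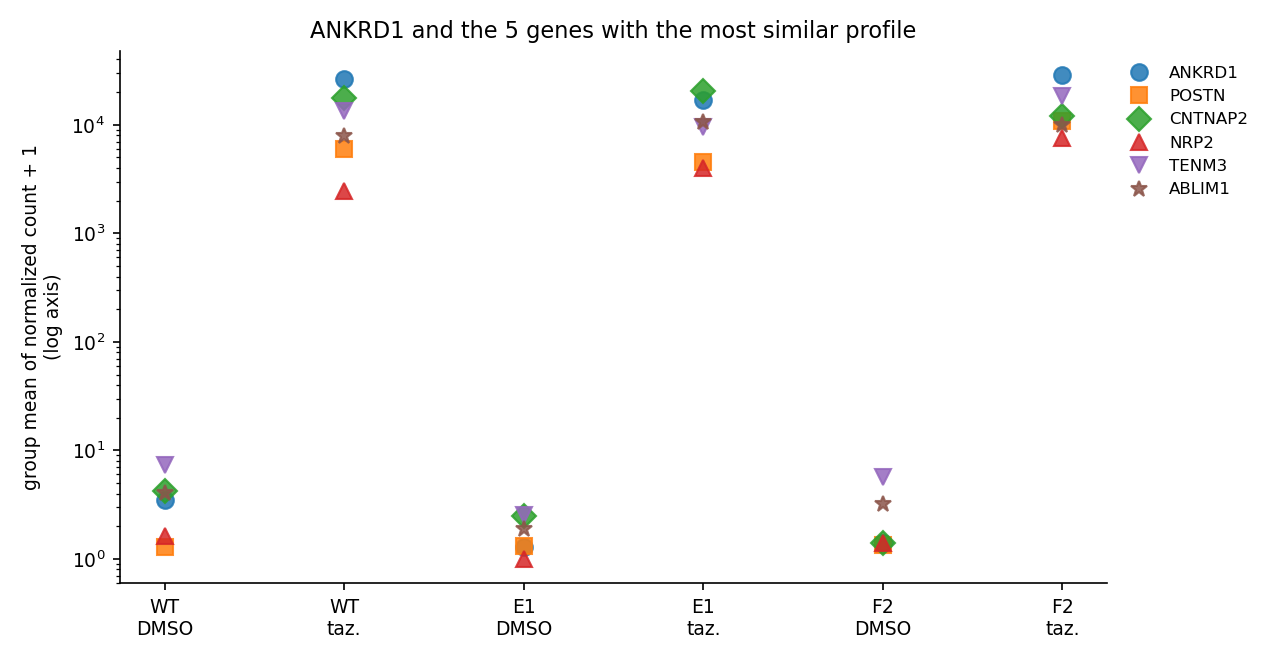
Group means of normalized count plus 1 (log axis) of ANKRD1 and the 5 genes nearest to it by root mean square difference of mean-centred log2 values over 18 libraries. All 6 genes lie under 10 in the 3 DMSO groups and above 2000 in the 3 tazemetostat groups.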

How the data were processed

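The members and the 2 further gene lists were chosen with earlier results of these data known. Polyadenylated RNA was sequenced with a stranded kit as paired reads, per the labels' protocols. The deposited signal values are gene counts that the authors divided by 1 size factor per library, since every value was whole (relative tolerance 1e-06) after multiplication by its library's factor in 100% of cases. The factors matched median-of-ratios size factors. The submitters' processing notes name Trim Galore 0.4.4, STAR 2.6.0a, HTSeq, DESeq2 and the build hg19. The annotation and the strand setting of the counting are not given in the sources used here. All 18 columns were used.

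Log2(value + 1) was fitted with limma 3.58.1 (lmFit, eBayes with trend) in R 4.3.3 as 6 group means without a block over the 16154 genes with a mean of at least 10. P-values were adjusted by Benjamini-Hochberg within each contrast, and a gene passed at an adjusted p under 0.05 with a log2 difference of at least 1 in size. Such differences understate the change of low genes. Intervals and floors (3 reads per library) cover counting error only. Replicates are labelled biological, with no word on separate cultures, so p-values measure only the spread between these libraries, which may in part be technical. On the recovered whole reads, edgeR 4.0.16 called 795 genes in E1 against WT in DMSO and 1867 under tazemetostat, where limma called 814 and 1833. In F2 against WT the numbers were 454 and 2030 by edgeR and 481 and 1984 by limma. DESeq2 1.42.0 was a further alternative. The fit was tested on simulated data. Named genes were all members, up to 4 of each list with the largest rise and fall per contrast, and the 5 genes nearest to ANKRD1. WWTR1-AS1, AXL, FJX1, GADD45A, LATS1, STK3 and STK4 were named after their values were seen.

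Deviations of same-numbered libraries of F2 and WT in DMSO correlated at 0.182, 0.108 and 0.375 (other numbers at most 0.146, 0.046 and -0.206). For F2 in DMSO and WT under tazemetostat they were 0.164, 0.168 and 0.372 (at most 0.055, 0.141 and -0.182). In no other pair of groups were all same-numbered values above the others. Treated E1 and F2 in DMSO, for example, had -0.303, 0.09 and -0.094 (other numbers at most 0.365, 0.281 and 0.059). Pairing by number was not established, and the main fit had no block. A replicate block over all 18 libraries was 1 alternative. Other alternatives were pseudocounts of 0.5 and 5, no filter, a common total, the groups of the contrast alone, no fold limit, and leaving out each library. Promoter sequence and gene lengths came from RefSeq (GRCh38.p14) and GENCODE 29, matched by symbol, and not from the build of the counts.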

Additional observations from a re-analysis of the deposited data

Results flagged for a closer look

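These results stand here because the drug response itself differed between lines by limma's interaction test. Response differences are log2 changes with tazemetostat in 1 line minus those in another, and each of the first 13 had an adjusted p under 0.05 without a fold limit. In E1 minus WT they were 0.57 for YAP1, -0.46 for TEAD4, -0.59 for AMOTL2, -0.87 for CTGF and -0.45 for CYR61. In F2 minus WT they were -0.52 for LATS2, 0.44 for AJUBA and -0.69 for CTGF. In E1 minus F2 they were -0.47 for TEAD4, 0.37 for LATS2, -0.29 for AJUBA, -0.54 for AMOTL2 and -0.30 for CYR61.

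The others are genes of the 2 further lists whose response differences also reached 2-fold. In E1 minus WT, FAT4 had -2.52, AMOT -1.66, WWC1 -1.15 and NF2 -1.09 among the regulators, and F3 had -3.43, IGFBP3 2.97 and NT5E 2.53 among the targets. In F2 minus WT, F3 had -2.30, IGFBP3 2.85, NT5E 2.59 and DOCK5 1.24. In E1 minus F2, FAT4 had -2.98, VGLL3 1.32 and F3 -1.13. AMOT, VGLL3, NT5E and IGFBP3 were at or under 3 reads in some DMSO groups, so that these fitted values depend on the pseudocount. With a pseudocount of 5, NT5E in F2 minus WT was 0.57, under 2-fold (adjusted p = 4.82e-02 by limma). AMOT and VGLL3 were tested because of their treated libraries. The AMOT value missed an adjusted p under 0.05 by edgeR (-3.16) and DESeq2 (-2.34), as did the VGLL3 value (1.30 and 1.51). By limma with no filter, AMOT had an adjusted p of 5.64e-02 and VGLL3 of 6.85e-02. AMOT also missed it with a pseudocount of 0.5 (7.27e-02). It was lost too without E1 DMSO replicate 2 (7.09e-02) or WT tazemetostat replicate 2 (5.24e-02). DOCK5 lost its call in F2 minus WT by edgeR (1.31) and without any of 7 single libraries.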

How the results depend on the processing

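Without the fold limit, the members past the adjusted p numbered 5 and 2 (E1 and F2 against WT, DMSO), 4 and 5 (under tazemetostat), 6 and 5 (E1 against F2), and 5, 3 and 5 (response differences). In the drug comparisons of WT, E1 and F2, dropping the fold limit gave 15, 14 and 16 regulators, and 13 and 14 targets in E1 and F2. With the fold limit kept, the fit with no filter gave 5 regulators in F2 in place of 3. At the full threshold, leaving out 1 library gave 0 to 1 members in both DMSO comparisons with WT and in the response difference F2 minus WT. Of 40 member calls by adjusted p alone, 26 held under all alternatives and 14 were lost under at least 1. The replicate block changed no member's call. In F2 against WT in DMSO, 0 members were past the threshold with it, as in the main fit. Signs turned only for values that had missed the adjusted p. With a common total these were 0.003 for YAP1 (F2 against WT, DMSO), 0.02 for WWTR1 and 0.138 for AJUBA (F2 against WT, drug), 0.033 for TEAD1 (E1 against WT, drug), 0.015 for TEAD1 and 0.069 for AMOTL2 (response F2 minus WT), -0.033 for TEAD1 (response E1 minus F2) and -0.058 for CYR61 (E1 against F2, drug). EdgeR gave -0.003 and DESeq2 -0.009 for TEAD1 (response E1 minus F2), and edgeR 0.001 for AJUBA (F2 against WT, drug). A pseudocount of 5 gave -0.191 for ANKRD1 (response E1 minus WT). Over single left-out libraries the ranges were -0.066 to 0.024 (YAP1, F2 against WT, DMSO), -0.141 to 0.118 (WWTR1, E1 against WT, DMSO), -0.034 to 0.071 (WWTR1) and -0.027 to 0.05 (TEAD4, both response F2 minus WT), -0.122 to 0.074 (TEAD1, response E1 minus F2), -0.012 to 0.039 (LATS2, E1 against WT, drug), -0.036 to 0.017 (AJUBA, F2 against WT, drug), -0.173 to 1.197 (ANKRD1, response E1 minus WT), -0.142 to 0.051 (CTGF, F2 against WT, DMSO) and -0.03 to 0.068 (CYR61, E1 against F2, drug). The cause was not tested. ANKRD1 in DMSO is limited by depth, at 0 to 6 reads per library.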
